A study of Mus musculus with 21 samples.

Results

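Resident macrophages of the peritoneal cavity were compared with monocytes of the bone marrow, both sorted from naive female C57BL/6 mice of 7 to 8 weeks. The comparison used 6 of the 21 arrays of the series, 3 labelled biological replicates of each population, and covered every gene with at least 1 probe set that named no other gene. The resident macrophages were sorted from peritoneal lavage as F4/80(high) CD11b(high) cells. The monocytes were sorted from flushed marrow as Ly-6B+ Ly-6G- cells, after lysis of red cells that the lavage cells did not go through. Neither population had been given zymosan, the yeast wall preparation used to start peritonitis in the other 5 groups (15 arrays). Tissue, isolation and cell type differ together between the populations, so their parts in a difference cannot be told apart. The labels do not say how many mice gave each array. The p-values therefore measure a spread between arrays, estimated over all 21 arrays of the series and not over the 6 alone.

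Resident peritoneal macrophages live for long periods in the cavity and renew themselves there with little input from blood. They clear dying cells and microbes, and in mice their identity depends on the transcription factor GATA6, which is induced by retinoic acid made in the omentum and other peritoneal tissues. Ly-6B+ marrow monocytes are young cells that descend from dividing granulocyte and monocyte progenitors and leave the marrow for the blood through the chemokine receptor CCR2.

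Values are MAS5 signals, a linear brightness per probe set with the same trimmed mean in every array of the deposited table. Median signal ran from 84.8 to 87.1 in the resident arrays and from 69.4 to 84.3 in the bone marrow arrays. Changes are log2 fold changes, resident over bone marrow, of the signal plus 15, tested over 12169 genes with limma and called at an adjusted p under 0.05 and a change of at least 1. The added 15 makes the change of a gene near the floor of the array smaller than the ratio of its signals. Arrays of resident macrophages correlated with each other at r = 0.976 to 0.978 across genes and those of bone marrow at 0.970 to 0.981, against 0.789 to 0.827 between the populations, where genes are not independent replicates. Bone marrow replicate 3 stood apart in granule and progenitor genes and resident replicate 1 in genes of cell division, as given beside those results.

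The sorted populations carried most tested markers of their labels. The marrow arrays also carried granule and progenitor genes, as given below, so these markers do not show a population of monocytes alone. All 16 markers of resident peritoneal macrophages were higher in the resident arrays, and 5 of 6 tested markers of classical monocytes were lower there. Over all genes tested 12.9% were higher and 10.2% lower. The markers were chosen with earlier results of these data known, so their counts are a description and not a test of identity. Adgre1, which encodes F4/80, had signals of 33763, 36328 and 36602 in resident macrophages, against 4927, 5064 and 3438 in marrow monocytes (log2 fold change 3.01 ± 0.11 (SE), adjusted p = 1.13e-14). Itgam, the CD11b chain, had 4042, 5071 and 4080 in resident macrophages, against 459, 511 and 531 in marrow monocytes (log2 fold change 3.09 ± 0.20 (SE), adjusted p = 7.55e-11). For both genes of the resident gate, the lowest resident array lay several times above the highest bone marrow array.

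Of the 6 lineage genes given next, Fcgr3 passed the fold threshold and the others did not. Csf1r, the receptor for the macrophage growth factor CSF-1, had 30213, 31108 and 34661 in resident macrophages and 25219, 23602 and 24674 in marrow monocytes, with no overlap (log2 fold change 0.38 ± 0.10 (SE), adjusted p = 0.00443). Spi1, which encodes the lineage factor PU.1, had 1591, 2564 and 1998 in resident macrophages and 2276, 2686 and 1904 in marrow monocytes, with overlapping arrays and a log2 fold change of -0.17 ± 0.27. Lysozyme, Lyz2, measured 28057 ± 1749 in resident macrophages and 29181 ± 4806 in marrow monocytes (mean ± SD, n = 3 each). The endosomal glycoprotein Cd68 had a log2 fold change of 0.84 (adjusted p = 0.00243) and Ptprc, which encodes CD45, one of -0.62 (adjusted p = 3.48e-05), so that Csf1r, Cd68 and Ptprc differed by less than the fold threshold. Fcgr3, an activating receptor for immunoglobulin G, was called, with a change of 1.68.

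Over all genes, 1566 (12.9% of those tested) were higher and 1241 (10.2%) lower in resident macrophages, 23.1% in all. The excess of higher genes was smaller when the arrays were scaled in other ways, as given under the dependence on processing. Arrays of the populations did not overlap for 6830 genes, 56.1% of those tested. The larger changes lay more often on the resident side. Changes of at least 3 on the log2 scale were 299 higher and 221 lower, those of at least 5 were 94 higher and 38 lower, and those of at least 7 were 33 higher and 9 lower. The median change over all genes tested was 0.05.

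**Figure D1:**
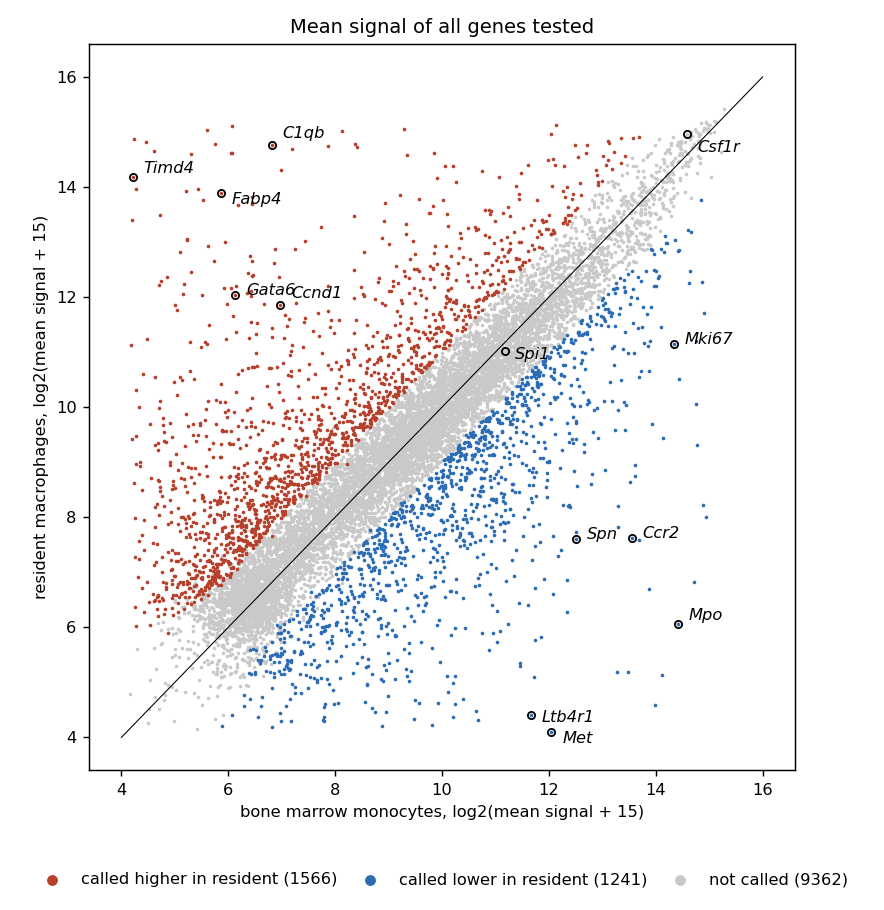
Mean signal of each of 12169 genes in resident macrophages (vertical axis) and bone marrow monocytes (horizontal axis), both as log2 of the mean of 3 arrays plus 15, with called genes in colour and the diagonal marking equal signal. Timd4, C1qb and Fabp4 lie at the top left and Mpo, Ltb4r1 and Met at the lower right, while Csf1r and Spi1 lie near the diagonal.

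Several genes at the extremes encode secreted or enzymatic products. Serpinb2, an inhibitor of plasminogen activators, had signals of 24883, 23664 and 26199 in resident macrophages, against 21.1, 24.2 and 27.9 in marrow monocytes (log2 fold change 9.31 ± 0.23 (SE), adjusted p = 3.66e-17). Prg4, lubricin, had 33460, 34536 and 38532 in resident macrophages and 43.6, 68.5 and 43.3 in marrow monocytes (log2 fold change 9.07 ± 0.29 (SE), adjusted p = 9.75e-16). Resident and marrow arrays of both genes lay far apart, with every marrow array near the floor. Ltbp1, which binds latent TGF-beta in the matrix, was 11490 ± 613 in resident macrophages and 11.3 ± 5.60 in marrow monocytes (log2 fold change 8.79). Gbp2b, a guanylate-binding protein, was 15494 ± 833 in resident macrophages and 21.8 ± 8.04 in marrow monocytes (8.74 on the log2 scale). The transmembrane gene Plxdc2 was 16033 ± 1173 in resident macrophages and 28.01 ± 20.1 in marrow monocytes (8.67 on the log2 scale). Among the largest decreases was that of the lectin-like receptor gene Klrb1f, at 34.2, 33.3 and 5.32 in resident macrophages against 3218, 2829.9 and 2306 in marrow monocytes (log2 fold change -6.25 ± 0.42 (SE), adjusted p = 1.38e-10). Uck2, a kinase that salvages uridine and cytidine, had 7.33, 7.12 and 7.01 in resident macrophages and 1629.5, 1641 and 1433 in marrow monocytes (log2 fold change -6.16 ± 0.31 (SE), adjusted p = 1.43e-12), and its arrays were tight in both. Parvg, gamma-parvin, an adaptor of integrin-linked kinase, changed by -6.15 on the log2 scale.

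The genes were then followed by role, in 47 lists that held 944 genes, of which 766 were tested. A list is described by its counts of members called and its median, to be read against 12.9% higher, 10.2% lower and a median of 0.05 over all genes.

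**Figure D2:**
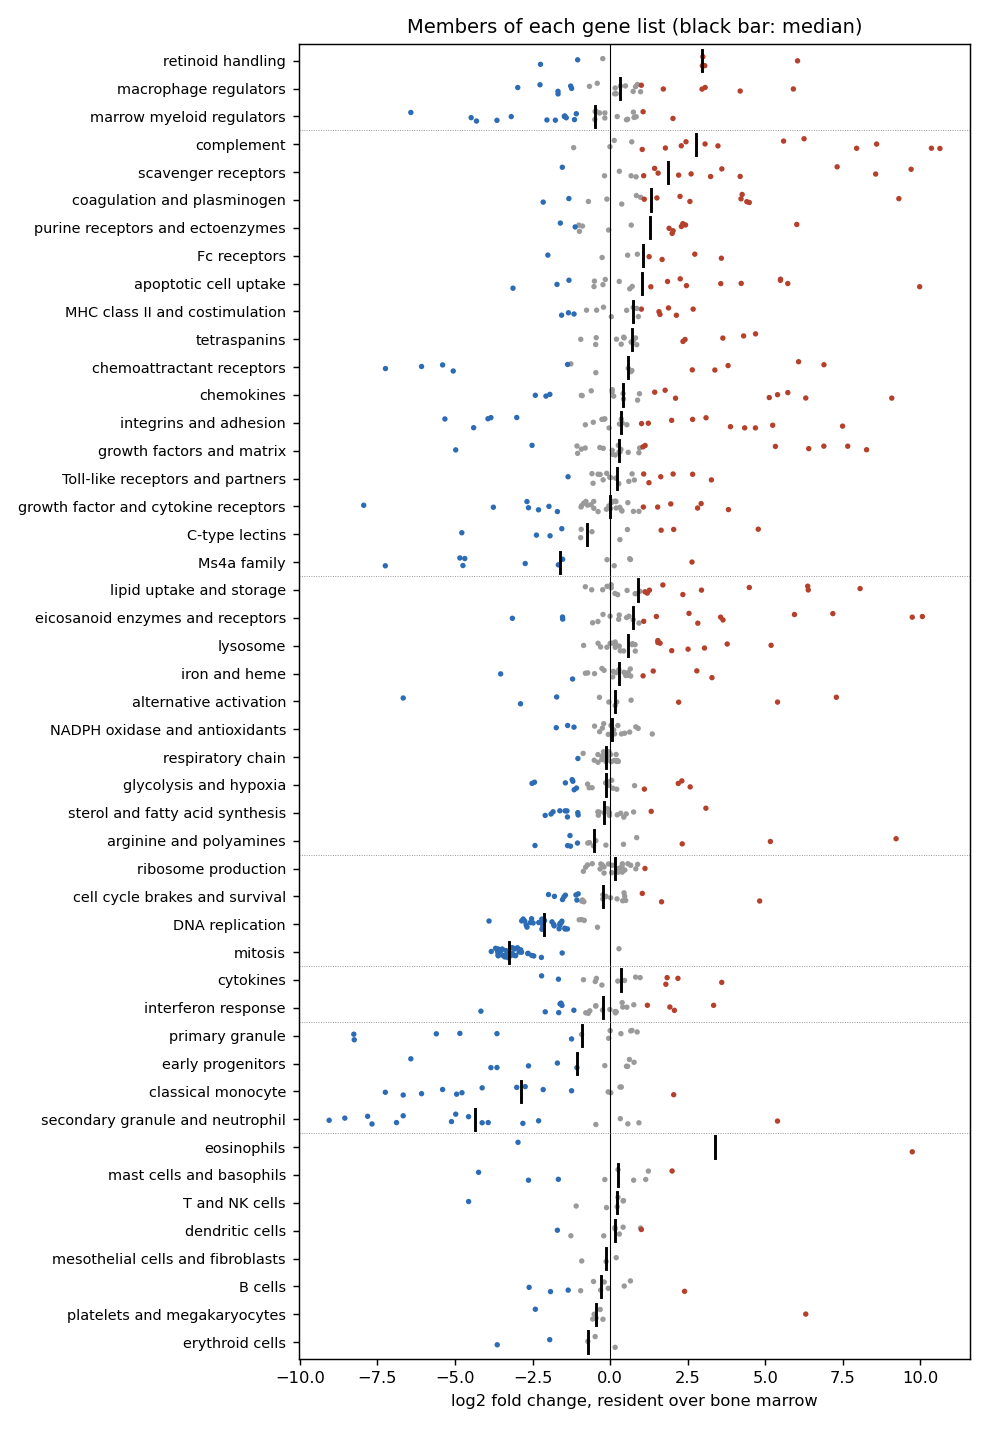
Log2 fold change, resident over bone marrow, of each member tested in 47 gene lists, with members called higher in red, called lower in blue and not called in grey, and the list median as a black bar. Complement (2.75) and retinoid handling (2.97) have high medians, and mitosis (-3.27), DNA replication (-2.13) and secondary granule genes (-4.34) low ones.

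Regulators of gene expression set the populations apart in both directions. Gata6 had signals of 3979, 4778 and 3808 in resident macrophages, against 47.5, 51.5 and 66.5 in marrow monocytes (log2 fold change 5.91 ± 0.20 (SE), adjusted p = 2.81e-15). Rarb, the retinoic acid receptor beta and a known target of retinoic acid, had 725, 812 and 593 in resident macrophages, against 31.1, 12.6 and 32.8 in marrow monocytes (log2 fold change 4.19 ± 0.33 (SE), adjusted p = 1.22e-09). Both genes were near the floor in all 3 bone marrow arrays and well above it in all 3 resident arrays. Of 23 macrophage regulators tested, 6 were higher and 6 lower, with a median of 0.33. Maf, a factor of differentiated macrophages, was 4387 ± 377 in resident macrophages and 515 ± 84.9 in marrow monocytes (log2 fold change 3.06). Bhlhe40, a repressor that supports the self-renewal of peritoneal macrophages in mice, was 7113 ± 1197 in resident macrophages and 909 ± 214 in marrow monocytes (2.96 on the log2 scale). Its close relative Bhlhe41 was 52.8 ± 12.2 in resident macrophages and 77.8 ± 32.0 in marrow monocytes, and was not called.

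Regulators lower in resident macrophages included Ahr, the aryl hydrocarbon receptor, with 247, 198 and 308 in resident macrophages against 1902, 2043 and 2215 in marrow monocytes (log2 fold change -2.98 ± 0.27 (SE), adjusted p = 1.36e-08). Another probe set of Ahr had a log2 fold change of 0.22 and was not called. Tfec, a factor of the MITF family, changed by -2.26, whereas Zeb2 (0.15) and Klf2 (0.16) were not called. Of 26 regulators of marrow myeloid cells, 12 were lower and 2 higher. Myb, which maintains proliferating blood progenitors, had 27.2, 19.4 and 11.6 in resident macrophages and 2554, 1589 and 5917 in marrow monocytes (log2 fold change -6.42 ± 0.58 (SE), adjusted p = 1.01e-08), with its highest signal in bone marrow replicate 3. E2f2, an activator of the cell cycle, was 134 ± 40.7 in resident macrophages and 3258 ± 567 in marrow monocytes (log2 fold change -4.48). E2f8, a repressor of the same family, changed by -4.31, and Irf8 and Klf4, factors of monocyte development, by -1.76 and -1.48. Gfi1, a transcriptional repressor needed for granulocyte development, had 199, 99.0 and 1189 in the bone marrow arrays, against 29.1, 2.57 and 4.26 in the resident arrays. Its log2 fold change of -3.65 was -2.67 without bone marrow replicate 3 and -4.37 without bone marrow replicate 2. Myc went the other way, with 1403, 2166.5 and 1938 in resident macrophages and 343, 381 and 616 in marrow monocytes (log2 fold change 2.03 ± 0.23 (SE), adjusted p = 3.03e-07).

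The retinoid genes lay next to Gata6 and Rarb in direction. Of 7 tested, 4 were higher and 2 lower, with a median of 2.97, and 8 further members were measured but below the filter on low signals. Aldh1a2, which makes retinoic acid from retinal, had 1185, 1362 and 1197.5 in resident macrophages, against 3.49, 1.30 and 8.27 in marrow monocytes (log2 fold change 6.04 ± 0.22 (SE), adjusted p = 1.00e-14). Dhrs3, which returns retinal to retinol, was 5791 ± 522 in resident macrophages and 694 ± 139 in marrow monocytes (log2 fold change 3.05). The genes of enzymes that break retinoic acid down were also higher, Cyp26b1 by 2.99 and Cyp26a1 by 2.97 on the log2 scale. Cyp26a1 had 1930.5, 524 and 593 in the resident arrays, and its change was 2.39 without resident replicate 1. Rdh12, a retinal reductase, was lower (-2.25).

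**Figure D3:**
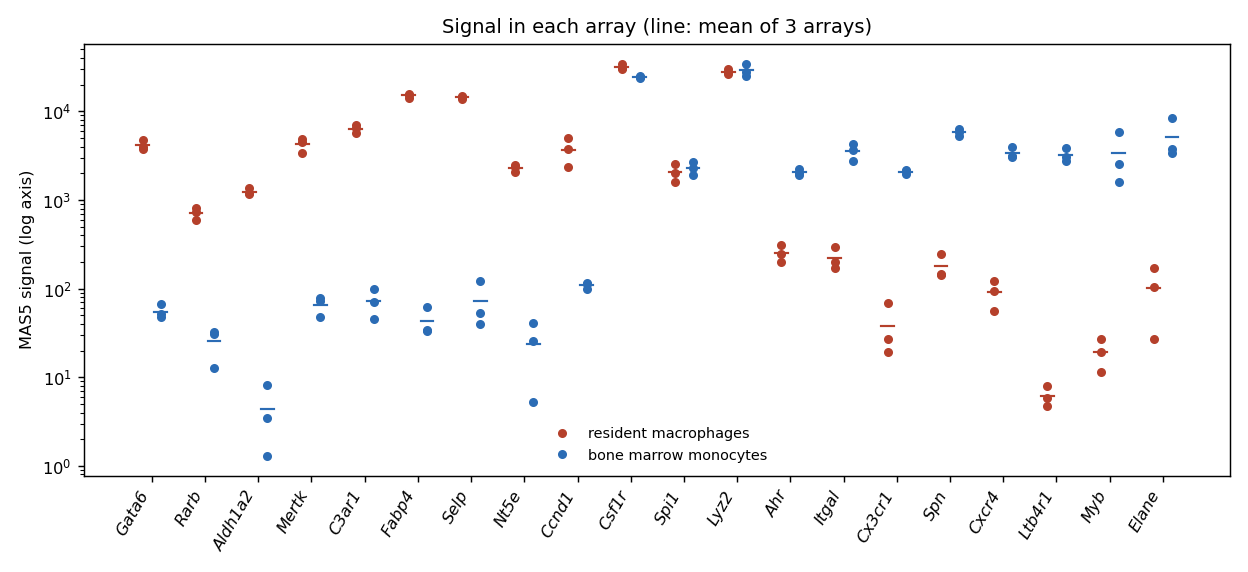
MAS5 signal, on a log axis, of 20 genes in each of 3 arrays of resident macrophages (red, left of each pair) and 3 of bone marrow monocytes (blue, right), with lines at the means. The arrays of the populations overlap for Spi1 and Lyz2, and are far apart for Gata6, Aldh1a2, Fabp4, Selp, Ltb4r1 and Myb.

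Genes for the recognition and uptake of dying cells and particles were mostly higher in resident macrophages. In complement, 12 of 16 genes tested were higher and 0 lower. C1qb, a chain of the C1q recognition molecule, had 28238, 24138 and 30574 in resident macrophages, against 87.1, 119.5 and 86.3 in marrow monocytes (log2 fold change 7.95 ± 0.23 (SE), adjusted p = 3.06e-16), and its partner chains C1qc and C1qa changed by 10.63 and 10.36. Vsig4, a receptor for C3 fragments, had 24740, 24058 and 27039 in resident macrophages and 43.8, 44.7 and 65.2 in marrow monocytes (log2 fold change 8.59 ± 0.42 (SE), adjusted p = 9.69e-13). The receptors for the complement peptides C3a and C5a were higher too, C3ar1 with 6409.7 ± 718 in resident macrophages and 71.9 ± 27.6 in marrow monocytes (log2 fold change 6.25) and C5ar1 with a change of 3.48. Cfb, factor B of the alternative pathway, changed by 5.59.

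Of 20 genes of apoptotic cell uptake, 10 were higher and 3 lower, with a median of 1.01. Timd4, a receptor for phosphatidylserine, had 18688, 19135 and 18075 in resident macrophages, against 3.30, 2.05 and 5.22 in marrow monocytes (log2 fold change 9.98 ± 0.34 (SE), adjusted p = 2.81e-15). Mertk, a receptor tyrosine kinase that binds dying cells through bridging proteins, had 4944, 3367 and 4543 in resident macrophages, against 72.6, 48.2 and 77.9 in marrow monocytes (log2 fold change 5.73 ± 0.17 (SE), adjusted p = 4.35e-16). Pros1, which encodes protein S, one of the bridges of Mertk, changed by 4.23, and Stab1, a scavenger receptor for phosphatidylserine, by 5.49. Abca1, which exports cholesterol, was 9853 ± 2852 in resident macrophages and 199 ± 20.2 in marrow monocytes (log2 fold change 5.49). Members of the same systems went the other way. Itgb5, an integrin chain used in uptake, was lower (-3.13), as were the phospholipid receptor gene Cd300lf (-1.71) and the transporter gene Abca7 (-1.33).

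Of 16 scavenger receptors, 11 were higher and 1 lower. Cd36, a receptor for oxidised lipids and dying cells, had 14184, 13733 and 11960 in resident macrophages, against 62.6, 107 and 45.9 in marrow monocytes (log2 fold change 7.32 ± 0.24 (SE), adjusted p = 1.66e-15). Cd5l, a secreted scavenger protein of tissue macrophages, was 25222 ± 1449 in resident macrophages and 52.3 ± 9.85 in marrow monocytes (log2 fold change 8.56), Marco changed by 9.70 and Msr1, the class A receptor, by 3.60. Scarb1, the receptor for high-density lipoprotein, was lower (-1.54). Fc receptor genes were higher in 4 of 8 tested, among them Fcgr4 by 3.59 and the transport receptor Fcgrt by 2.73, and the Fc receptor-like gene Fcrl1 was lower (-2.01).

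Receptors for chemical attractants were exchanged between the populations, 5 of 15 higher and 5 lower. Ltb4r1, the high-affinity receptor for leukotriene B4, had 4.70, 7.96 and 5.86 in resident macrophages, against 3040.5, 2756 and 3847 in marrow monocytes (log2 fold change -7.24 ± 0.26 (SE), adjusted p = 8.38e-15). Cx3cr1, the fractalkine receptor, was 38.3 ± 26.5 in resident macrophages and 2073 ± 113 in marrow monocytes (log2 fold change -5.40), and Cxcr4, which retains cells in the marrow through CXCL12, was 90.6 ± 33.6 in resident macrophages and 3395.5 ± 494 in marrow monocytes (-5.06 on the log2 scale). Ccr2 changed by -6.08. On the resident side stood Ackr3, a receptor that removes CXCL12, with 3041, 1482 and 2133 in resident macrophages against 1.95, 3.37 and 3.80 in marrow monocytes (log2 fold change 6.89 ± 0.31 (SE), adjusted p = 2.54e-13). Cmklr1, the chemerin receptor, changed by 6.07, the sphingosine phosphate receptors S1pr1 and S1pr5 by 3.80 and 3.38, and the chemokine receptor gene Ccr1 by 2.65.

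Chemokine genes were higher in 8 of 21 and lower in 3. Cxcl13, which attracts B cells, had 26673, 26686 and 30926 in resident macrophages, against 45.9, 19.2 and 51.9 in marrow monocytes (log2 fold change 9.08 ± 0.42 (SE), adjusted p = 3.44e-13). Cxcl12, the ligand of CXCR4 and ACKR3, was 2173 ± 129 in resident macrophages and 30.0 ± 20.5 in marrow monocytes (log2 fold change 5.73), and another of its probe sets was not called (0.55). Pf4, platelet factor 4, had 32020, 32408 and 37994 in resident macrophages and 328, 155 and 1350.1 in marrow monocytes, a change of 6.31 that was 5.64 without bone marrow replicate 2 and 7.14 without bone marrow replicate 3. Ccl24, which attracts eosinophils, changed by 5.40, and the neutrophil attractant gene Cxcl1, at 5645, 13275 and 15351 in the resident arrays, by 5.13. Lower in resident macrophages were Ccl2, a ligand of CCR2 (-1.94), and Cxcl10 (-2.07).

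Adhesion genes divided in the same manner, 10 of 25 higher and 5 lower. Selp, P-selectin, had 15055, 13691 and 14526 in resident macrophages, against 53.1, 40.3 and 122 in marrow monocytes (log2 fold change 7.49 ± 0.26 (SE), adjusted p = 3.61e-15). Itga6, a laminin-binding integrin chain, was 24416 ± 830.3 in resident macrophages and 636 ± 97.8 in marrow monocytes (log2 fold change 5.24), and Icam2 changed by 4.34 and Jam2 by 4.68. The common chain Itgb1 was higher by 2.66 and Itgb2 by 1.23. Itgal, the alpha chain of LFA-1 that pairs with the product of Itgb2, was lower, with 199, 293 and 169.7 in resident macrophages against 3687, 4253 and 2767 in marrow monocytes (log2 fold change -3.94 ± 0.22 (SE), adjusted p = 9.12e-12). Itga1, a collagen-binding chain, had 2.05, 18.4 and 8.60 in resident macrophages and 1238, 794 and 838 in marrow monocytes (log2 fold change -5.33 ± 0.33 (SE), adjusted p = 3.21e-11). Alpha and beta chains of integrins were thus found on both sides. Among 16 tetraspanins, 5 were higher and 0 lower, with Tspan4 at 4.69 and Cd9 at 4.30. The change of Cd9 was 4.94 without bone marrow replicate 3.

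Of 25 growth factor and matrix genes, 7 were higher and 2 lower, with a median of 0.29. Igf1, insulin-like growth factor, had 6472, 3977 and 5275 in resident macrophages, against 5.31, 1.47 and 34.6 in marrow monocytes (log2 fold change 7.66 ± 0.51 (SE), adjusted p = 9.26e-11). Timp2, an inhibitor of metalloproteinases, had 27900, 26710 and 29638 in resident macrophages and 328, 311 and 311 in marrow monocytes (log2 fold change 6.40 ± 0.21 (SE), adjusted p = 2.41e-15). Tgfb2, whose product is stored with that of Ltbp1, changed by 8.27, and the signalling receptor chain Tgfbr2 by 2.82. Bmp2, a bone morphogenetic protein, and its receptor gene Bmpr1a were both higher, Bmp2 by 5.33 and Bmpr1a by 3.81, the second by 3.21 without bone marrow replicate 1. Vegfa was lower, with 17.1, 13.9 and 49.1 in resident macrophages against 173, 169 and 306 in marrow monocytes (log2 fold change -2.52 ± 0.32 (SE), adjusted p = 1.61e-06).

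The receptors for growth factors and cytokines were called in 13 of 36 genes, 6 higher and 7 lower. Met, the receptor for hepatocyte growth factor, changed by -7.94, and Il1r2, the decoy receptor for interleukin 1, by -3.76. Lifr, the receptor for leukaemia inhibitory factor, was higher (2.93), although another of its probe sets was not called (-0.17). Coagulation and plasminogen genes were higher in 9 of 16 and lower in 2. Factor genes F7 and F5 changed by 4.26 and 4.22 on the log2 scale, and the intracellular serpin genes Serpinb6a and Serpinb8 by 4.49 and 4.41. F13a1, the factor XIII chain of monocytes, was 5695 ± 496 in resident macrophages and 25418 ± 1244 in marrow monocytes (log2 fold change -2.16). The genes of both enzymes that turn extracellular ATP into adenosine were higher, in a purine list with 7 of 14 genes higher and 2 lower. Nt5e, CD73, which makes adenosine from AMP, had 2056, 2502.5 and 2349 in resident macrophages, against 5.22, 25.4 and 40.6 in marrow monocytes (log2 fold change 6.02 ± 0.26 (SE), adjusted p = 9.78e-14), and Entpd1, CD39, which breaks ATP down to AMP, changed by 1.90.

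In metabolism, the genes called in the lists of lipid uptake and storage and of the lysosome were higher, and most of those called in sterol synthesis were lower. Scarb1 and Abca7, which also move lipids and were lower, stood in other lists. Of 22 lipid uptake and storage genes, 10 were higher and 0 lower. Fabp4, a fatty acid binding protein, had 14362, 15706 and 15380 in resident macrophages, against 33.9, 33.7 and 62.4 in marrow monocytes (log2 fold change 8.06 ± 0.26 (SE), adjusted p = 1.23e-15). Its relative Fabp7 was 6837 ± 794 in resident macrophages and 69.5 ± 27.7 in marrow monocytes (log2 fold change 6.39), and Fabp5 was not called (0.96). Pltp, which transfers phospholipids between lipoproteins, had 26769, 26046 and 28890 in resident macrophages and 253, 443 and 275 in marrow monocytes (log2 fold change 6.37 ± 0.22 (SE), adjusted p = 2.97e-15). The apolipoprotein genes Apoc1 and Apoe changed by 4.49 and 2.94.

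Sterol and fatty acid synthesis had 9 of 25 genes lower and 2 higher. Fdft1, squalene synthase, was 227 ± 19.5 in resident macrophages and 1024 ± 150.5 in marrow monocytes (log2 fold change -2.09), and Elovl6, an elongase of fatty acids, changed by -1.62. The genes of enzymes that supply acetyl-CoA and malonyl-CoA went the other way. Acaca, acetyl-CoA carboxylase, had 5232, 4560.3 and 4856 in resident macrophages, against 621, 463 and 612 in marrow monocytes (log2 fold change 3.09 ± 0.15 (SE), adjusted p = 1.08e-12), and Acly, ATP citrate lyase, changed by 1.32. Fasn, fatty acid synthase, was not called (0.44), and neither was Srebf1, a regulator of these genes (-0.02). With probe sets averaged per gene in place of the brightest one, 4 genes of the list were lower.

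Eicosanoid genes were higher in 10 of 23 and lower in 3. Ltc4s, leukotriene C4 synthase, had 5794, 4826 and 6259.7 in resident macrophages, against 13.3, 33.8 and 27.0 in marrow monocytes (log2 fold change 7.18 ± 0.39 (SE), adjusted p = 4.06e-12). Ephx1, an epoxide hydrolase, was 5393 ± 311 in resident macrophages and 72.9 ± 4.15 in marrow monocytes (log2 fold change 5.94), and Alox5, 5-lipoxygenase, changed by 3.56. Ptgis changed by 10.07 and Alox15 by 9.74, or 10.37 without bone marrow replicate 3. Genes for the making of leukotriene C4 were thus higher in resident macrophages, and the receptor gene for leukotriene B4 was lower. Lta4h, whose product makes leukotriene B4, was also lower, at 3293 ± 198 in resident macrophages and 10189 ± 4590 in marrow monocytes. Further probe sets of Lta4h were not called (-0.51 and 0.12). The other genes lower were Hpgd (-3.15) and Ptgs2 (-1.53), and Ptgs2 lost its call without resident replicate 1 (-0.825).

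Lysosomal genes were higher in 8 of 24 and lower in 0. Lgmn, legumain, had 11392, 11446 and 12687 in resident macrophages and 813.5, 918 and 825 in marrow monocytes (log2 fold change 3.77 ± 0.13 (SE), adjusted p = 5.63e-15), and Ctsf, cathepsin F, was 696 ± 114 in resident macrophages and 4.33 ± 0.554 in marrow monocytes (log2 fold change 5.19). Without the fold threshold, at an adjusted p alone, 15 of the 24 were higher. Iron genes were called in 6 of 21. Slc11a1, NRAMP1, which moves iron out of the phagosome, had 12128, 12832 and 11612 in resident macrophages and 1563, 2350.1 and 1438.5 in marrow monocytes (log2 fold change 2.79 ± 0.14 (SE), adjusted p = 1.43e-12). Slc40a1, ferroportin, the iron exporter, had 26.9, 8.47 and 33.1 in resident macrophages and 263, 163 and 1451 in marrow monocytes, and its change of -3.53 was -2.62 without bone marrow replicate 3 and -4.14 without bone marrow replicate 2.

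Few genes of the respiratory chain and of the NADPH oxidase list were called, and more of glycolysis. In the respiratory chain 1 of 24 genes was called, Cycs, cytochrome c (-1.04, or -0.93 without resident replicate 1 and -0.98 without bone marrow replicate 2, below the fold threshold), and the median was -0.13. In the NADPH oxidase and antioxidant list 3 of 18 were lower, among them Ncf4, an oxidase subunit (-1.37), while Cybb, its catalytic subunit, was not called (0.47). Glycolysis and hypoxia genes were higher in 4 of 21 and lower in 7. Pfkl, the liver type phosphofructokinase, changed by 2.58 and Pdk1, which restrains pyruvate entry to mitochondria, by 2.31, whereas the glucose transporter gene Slc2a1 changed by -1.44. Of 15 arginine and polyamine genes, 3 were higher and 5 lower. Arg1 changed by 9.22 and the arginine transporter gene Slc7a2, with 4751, 2535.5 and 3877 in resident macrophages and 102, 73.6 and 83.5 in marrow monocytes, by 5.17, while Arg2, the mitochondrial arginase, changed by -1.37 and lost its call without bone marrow replicate 3 (-0.90).

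Genes of cell division were lower in resident macrophages almost throughout. Of 38 mitosis genes, 37 were lower and 0 higher, and of 32 DNA replication genes 28 were lower and 0 higher. In bulk RNA, fewer dividing cells and less of these transcripts per dividing cell cannot be told apart. Mki67, the Ki-67 antigen, had 662, 2548 and 3536 in resident macrophages, against 20868, 17555 and 23533 in marrow monocytes (log2 fold change -3.48 ± 0.54 (SE), adjusted p = 1.82e-05). Kif11, a motor of the mitotic spindle, had 119.6, 295 and 315 in resident macrophages, against 3238, 2607 and 3056 in marrow monocytes (log2 fold change -3.63 ± 0.45 (SE), adjusted p = 9.66e-07). Resident replicate 1 was the lowest array in both genes. Over the mitosis list, mean log2 signal was 7.83, 9.03 and 9.39 in the resident arrays and 11.95, 11.65 and 11.90 in the bone marrow arrays. Without resident replicate 1 the same number of genes was called, 37 and 28, and the median change was -2.73 for mitosis, against -3.27 with all arrays, and -1.73 for DNA replication, against -2.13. Mki67 then changed by -2.77.

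DNA replication thus had the smaller median change of the pair, a difference that was not tested. Pcna, the sliding clamp, was 7179 ± 1829 in resident macrophages and 18289 ± 779 in marrow monocytes (log2 fold change -1.38), and Mcm5, of the replicative helicase, was 2023 ± 951 in resident macrophages and 12363 ± 1486 in marrow monocytes (-2.71 on the log2 scale). Pttg1 was the mitosis gene not called (0.28). One gene that drives entry into the cycle ran opposite. Ccnd1, cyclin D1, had 3769, 4951 and 2339.8 in resident macrophages, against 117, 100.3 and 114 in marrow monocytes (log2 fold change 4.82 ± 0.34 (SE), adjusted p = 2.27e-10), while Ccnd2 (0.02) and Ccnd3 (-0.84) were not called. Among brakes of the cycle, Cdkn1c was higher (1.66) and Cdkn2d (-1.80), Rbl1 (-1.99) and the pro-apoptotic gene Bid (-1.54) were lower, in a list with 3 of 23 genes higher and 8 lower. Ribosome production genes were called in 1 of 24, with a median of 0.16.

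**Figure D4:**
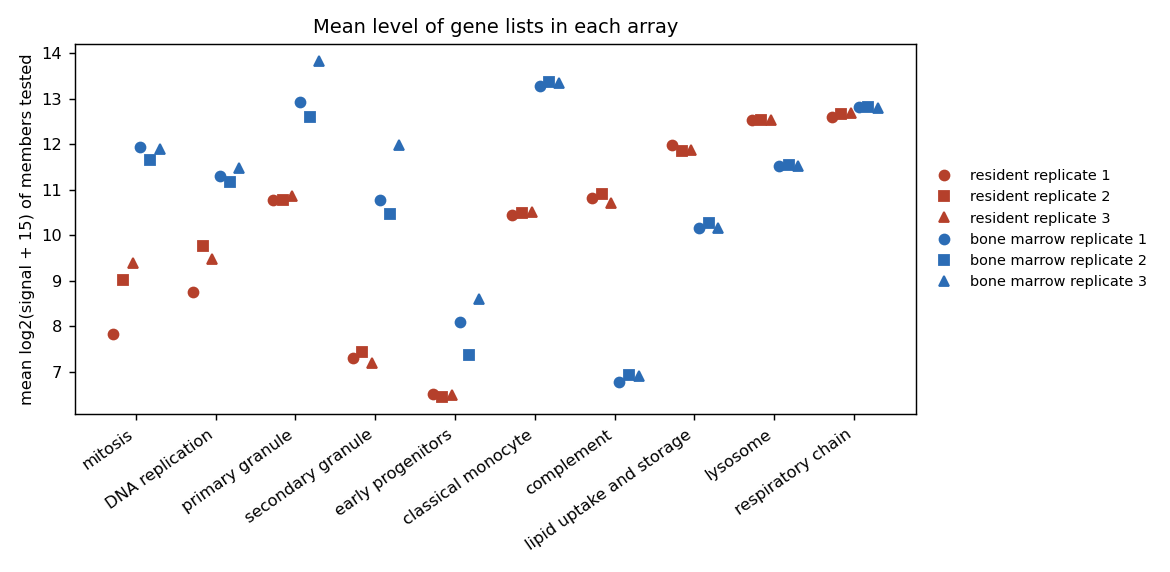
Mean of log2(signal + 15) over the members tested of 10 lists in each array, resident macrophages in red at the left of each group and bone marrow monocytes in blue at the right, with a symbol for each replicate. Resident replicate 1 is lowest in mitosis (7.83), and bone marrow replicate 3 is highest in the secondary granule list (11.996).

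Promoters of the dividing-cell genes were read from RefSeq windows of 250 bases before and 50 after the start of each gene on build GRCm38.p6, for the 7897 tested genes with exactly 1 window. The letters TTTGAA, the core of the cell cycle homology region (CHR) that late cell cycle genes are known for, stood on either strand in 22 of 29 windows of mitosis genes called lower (75.9%), in 12% of all windows and in 5.00% of the 20 windows of DNA replication genes called lower. CCAAT, the NF-Y letters, stood in 72.4% of the mitosis windows and 39.2% of all windows, and both together in 62.1% and 4.80%. The E2F letters TTCCCGC or TTGGCGC stood in 11 of the 20 DNA replication windows (55.0%), in 12.5% of all windows and in 10.3% of the mitosis windows. A match of letters is a description and not a site shown to be bound.

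The 120 bases before the start are shown for 3 mitosis and 3 DNA replication genes, those with the largest change whose stretch held the letters, with the CHR and CCAAT letters (mitosis) or the E2F letters (DNA replication) in capitals. In the 3 mitosis stretches the first base of the CHR core lies 19, 18 and 29 bases before the start. Stretches chosen for holding the letters this near do not show where the core lies in other mitosis genes, which was not measured.
Kif11: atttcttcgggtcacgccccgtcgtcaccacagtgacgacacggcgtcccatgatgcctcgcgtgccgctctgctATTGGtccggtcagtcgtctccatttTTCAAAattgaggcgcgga
Cdc20: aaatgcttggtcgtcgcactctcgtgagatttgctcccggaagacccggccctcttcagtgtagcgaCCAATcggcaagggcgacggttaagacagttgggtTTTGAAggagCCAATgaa
Ube2c: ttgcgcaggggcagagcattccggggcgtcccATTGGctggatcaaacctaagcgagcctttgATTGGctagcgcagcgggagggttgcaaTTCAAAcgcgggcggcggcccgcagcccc
Rrm1: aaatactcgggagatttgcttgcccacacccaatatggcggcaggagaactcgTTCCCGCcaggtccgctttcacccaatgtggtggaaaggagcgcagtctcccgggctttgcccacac
Prim1: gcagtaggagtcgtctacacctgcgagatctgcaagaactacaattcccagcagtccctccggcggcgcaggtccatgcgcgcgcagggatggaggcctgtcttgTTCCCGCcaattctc
Mcm6: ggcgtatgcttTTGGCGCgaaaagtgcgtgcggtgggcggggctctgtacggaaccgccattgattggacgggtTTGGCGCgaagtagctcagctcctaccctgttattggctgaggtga

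The stretches lie at chr19:37376262-37376381 (+ strand), chr4:118437344-118437463 (- strand), chr2:164769809-164769928 (+), chr7:102441575-102441694 (+), chr10:128015095-128015214 (+) and chr1:128359706-128359825 (-). Cdc20, an activator of the anaphase-promoting complex, was 1043 ± 679 in resident macrophages and 11193 ± 2015.5 in marrow monocytes (log2 fold change -3.61), and Ube2c, a ubiquitin-conjugating enzyme of the same complex, changed by -3.61, or -3.02 without resident replicate 1. Rrm1, the large subunit of ribonucleotide reductase, changed by -2.53, Prim1, the catalytic subunit of primase, by -2.20 and Mcm6, of the replicative helicase, by -1.64. In both Kif11 and Ube2c the capitals are read on the opposite strand, as ATTGG and TTCAAA.

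**Figure D5:**
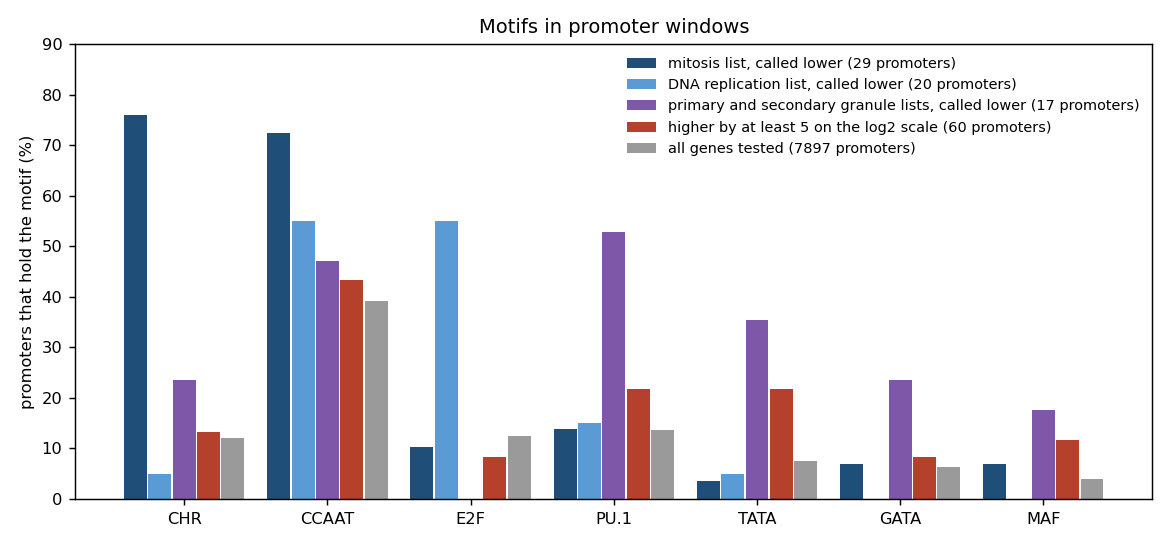
Percentage of promoter windows that hold each motif on either strand in 5 sets of genes, with all genes tested in grey at the right of each group. Mitosis genes stand highest in CHR (75.9%) and CCAAT (72.4%), DNA replication genes in E2F (55.0%) and granule genes in PU.1 (52.9%) and TATA (35.3%).

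Granule genes of the marrow were among the deepest decreases. In the secondary granule and neutrophil list 13 of 18 genes were lower and 1 higher, with a median of -4.34, and in the primary granule list 6 of 13 were lower and 0 higher. Elane, neutrophil elastase, had 104, 27.0 and 171 in resident macrophages, against 3719.7, 3371 and 8404 in marrow monocytes (log2 fold change -5.60 ± 0.45 (SE), adjusted p = 2.07e-09), a change that was -4.995 without resident replicate 2. Ngp, neutrophilic granule protein, had 95.1, 89.0 and 112 in resident macrophages, against 26006, 16552 and 38578 in marrow monocytes (log2 fold change -7.82 ± 0.47 (SE), adjusted p = 2.41e-11). Fcnb, a ficolin of maturing myeloid cells, had 92.4, 71.9 and 81.1 in resident macrophages, against 2216, 1889 and 8745 in marrow monocytes (log2 fold change -5.11 ± 0.42 (SE), adjusted p = 2.72e-09). Bone marrow replicate 3 was the highest array in each of these 3 genes. Over the secondary granule list, mean log2 signal was 7.30, 7.44 and 7.20 in the resident arrays and 10.77, 10.47 and 11.996 in the bone marrow arrays.

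Without bone marrow replicate 3, 13 secondary and 6 primary granule genes were lower, the same numbers, 2 and 1 were higher, and the medians were -3.89 and -0.63, against -4.34 and -0.92 with all arrays. Fcnb then changed by -4.42. The marrow gate excluded Ly-6G+ cells, and Ly6g itself was not analysed here. Members of the granule lists that were not called included Lyz2 (-0.05), the protease genes Ctsc (0.00) and Mmp9 (0.93), and Csf3r, the receptor for the granulocyte growth factor (0.57). Lrg1 was the member that was higher (5.39, or 4.67 without bone marrow replicate 2 and 6.41 without bone marrow replicate 3).

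Progenitor genes were lower in 6 of 11 tested, with a median of -1.07, and of -0.53 without bone marrow replicate 3, where 5 were lower. Cd34, a marker of blood progenitors, had 4.02, 18.4 and 44.0 in resident macrophages and 485, 324 and 640.4 in marrow monocytes (log2 fold change -3.84 ± 0.51 (SE), adjusted p = 2.61e-06). Kit, the receptor for stem cell factor, had 31.7, 27.6 and 27.4 in resident macrophages and 232, 97.3 and 709.9 in marrow monocytes, and its change of -2.63 was -1.92 without bone marrow replicate 3 and -3.27 without bone marrow replicate 2. The transcription factor genes Hoxa9 (0.77) and Meis1 (0.56) were not called.

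In the promoter windows of granule genes called lower, GAGGAAG, letters that PU.1 is known to bind, stood in 9 of 17 (52.9%), against 13.7% of all windows, and TATAAA in 35.3%, against 7.53%. The median window of these genes held 3 CpG, against 21 over all genes tested. For the 60 genes with 1 window that were higher in resident macrophages by at least 5, the shares were 21.7% for both motifs and the median was 8 CpG. Shown in the same way are 3 granule genes and 2 resident genes whose 120 bases hold GAGGAAG or its reverse complement CTTCCTC, in capitals.
Elane: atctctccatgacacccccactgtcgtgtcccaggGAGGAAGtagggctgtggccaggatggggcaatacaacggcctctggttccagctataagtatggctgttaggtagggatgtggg
Lcn2: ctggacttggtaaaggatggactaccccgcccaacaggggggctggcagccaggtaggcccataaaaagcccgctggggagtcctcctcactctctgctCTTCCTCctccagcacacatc
Olfm4: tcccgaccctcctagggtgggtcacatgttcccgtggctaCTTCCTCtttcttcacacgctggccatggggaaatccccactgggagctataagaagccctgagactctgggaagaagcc
Cd5l: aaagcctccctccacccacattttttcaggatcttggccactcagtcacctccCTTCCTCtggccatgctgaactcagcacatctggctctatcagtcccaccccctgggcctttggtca
Igf1: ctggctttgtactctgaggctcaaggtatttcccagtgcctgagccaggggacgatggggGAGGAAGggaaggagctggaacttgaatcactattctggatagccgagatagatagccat

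These stretches lie at chr10:79886192-79886311 (+ strand), chr2:32387740-32387859 (- strand), chr14:80000182-80000301 (+), chr3:87357761-87357880 (+) and chr10:87860991-87861110 (+). The stretches were chosen for holding the letters, so their presence before genes of both directions was fixed by the choice. Over whole windows the letters stood in 52.9% for granule genes called lower. They stood in 21.7% for genes higher by at least 5 and in 13.7% for all genes tested. Lcn2, lipocalin 2, was 386 ± 114 in resident macrophages and 11685 ± 9982.5 in marrow monocytes (log2 fold change -4.56, or -3.90 without bone marrow replicate 3). Olfm4, olfactomedin 4, changed by -3.93, or by -2.93 without bone marrow replicate 3 and -4.60 without bone marrow replicate 2.

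Genes of classical monocytes were lower in 11 of 16 and higher in 1, with a median of -2.87, which was -3.03 without bone marrow replicate 3. Some of those lower, Chil3 (-6.67) among them, were also counted as lower in the granule lists. Ccr2 had 317, 98.4 and 129.99 in resident macrophages, against 12818, 13536 and 9680.4 in marrow monocytes (log2 fold change -6.08 ± 0.34 (SE), adjusted p = 5.10e-12). Spn, the sialoglycoprotein CD43, is a member of the monocyte list that is not particular to classical monocytes. It had 142, 148 and 247 in resident macrophages, against 5890, 5276.5 and 6289 in marrow monocytes (log2 fold change -4.95 ± 0.29 (SE), adjusted p = 1.54e-11). Plac8 was 1052 ± 431 in resident macrophages and 27636 ± 3826.5 in marrow monocytes (log2 fold change -4.78). Fn1, fibronectin, was not called (0.32). The Ms4a family of membrane proteins was lower in 7 of 12 genes and higher in 1. Ms4a6b had 343, 574 and 516 in resident macrophages and 11215, 14963 and 11327 in marrow monocytes (log2 fold change -4.69 ± 0.18 (SE), adjusted p = 1.99e-14), and Ms4a4c changed by -7.25, whereas Ms4a8a was higher, with 9959.9, 9664 and 8934 in resident macrophages and 1667, 2034 and 1022 in marrow monocytes (log2 fold change 2.64 ± 0.20 (SE), adjusted p = 7.66e-10).

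Genes of sensing and inflammation were mixed. Toll-like receptors and partners were higher in 6 of 20 and lower in 1. Tlr4, the receptor for bacterial lipopolysaccharide, had 1785, 1668 and 2071 in resident macrophages, against 227, 353 and 267 in marrow monocytes (log2 fold change 2.66 ± 0.15 (SE), adjusted p = 8.07e-12), and its partners Cd14 and Ly96 changed by 2.03 and 1.63. Tlr2 was not called (-0.55). C-type lectins were higher in 3 of 12 and lower in 4. Clec4a2, an inhibitory lectin, had 205, 182 and 202 in resident macrophages and 5815, 5589 and 5966 in marrow monocytes (log2 fold change -4.78 ± 0.21 (SE), adjusted p = 1.35e-13), and Clec5a changed by -2.38, while Clec4d was higher by 4.78.

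Interferon response genes were higher in 4 of 25 and lower in 7. The guanylate-binding protein genes Gbp3 (1.93) and Gbp6 (3.34) and the antiviral gene Oas2 (1.201) were higher, and the antiviral genes Mx1 (-1.61), Mx2 (-2.09) and Cmpk2 (-1.66) were lower. The largest change of the list was a decrease, that of Ifit2 (-4.16, or -3.44 without resident replicate 1). Ifit2 had 16.4, 155 and 105 in resident macrophages and 1251, 1833 and 1574.5 in marrow monocytes. Gbp6 had 516, 1035 and 966 in resident macrophages and 40.2, 115 and 58.8 in marrow monocytes. Of 14 cytokines, 4 were higher and 2 lower. Il1a was 275 ± 32.8 in resident macrophages and 9.70 ± 8.36 in marrow monocytes (log2 fold change 3.60), and Il1b was 154 ± 70.4 in resident macrophages and 789 ± 473 in marrow monocytes (-2.21 on the log2 scale), so that the paired interleukin 1 genes differed in opposite directions. Il6 changed by 2.19. Tnf had 98.5, 508 and 328 in resident macrophages and 677, 992 and 918 in marrow monocytes, and its change of -1.67 (adjusted p = 0.00885) became -1.03 with an adjusted p of 0.0848 without resident replicate 1.

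The class II genes H2-Aa and H2-Ab1 were higher in resident macrophages and varied among the resident arrays. H2-Aa, an alpha chain, had 5809.5, 14265 and 9141 in resident macrophages, against 1242, 1599.6 and 1421 in marrow monocytes (log2 fold change 2.68 ± 0.31 (SE), adjusted p = 4.78e-07). H2-Ab1, its beta partner, had 2141, 7887 and 3877 in resident macrophages and 1014, 909 and 807 in marrow monocytes (log2 fold change 2.14 ± 0.33 (SE), adjusted p = 1.57e-05). Resident replicate 2 was highest in both. Of 17 genes of presentation and costimulation, 6 were higher, Cd40 among them (1.61), and 3 lower. One of the lower genes was H2-DMb2, a chain of the peptide-loading factor H2-DM, with 124, 309 and 269 in resident macrophages and 573.5, 397 and 579 in marrow monocytes (log2 fold change -1.16 ± 0.42 (SE), adjusted p = 0.0273). Its call was lost without resident replicate 1 (-0.79), bone marrow replicate 1 (-1.08) or bone marrow replicate 3 (-1.07), and 2 further probe sets of the gene were not called (-0.85 and -0.36).

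Markers of other cells are given by list, against 12.9% higher and 10.2% lower over all genes tested. In every such list but that of mesothelial cells and fibroblasts the share lower was above 10.2%, in lists of few genes. The part of other cells in the results was not tested. The sums of signal below run over all measured members of a list, those under the filter included. Of 11 B cell genes tested, 1 was higher and 3 lower, and the signals of the 15 measured summed to between 1429 and 2211 in resident arrays and between 1597 and 1897 in bone marrow arrays. Blnk, a B cell adaptor that macrophages also use, was the one higher (2.40), Rag1 (-2.61), Ebf1 (-1.92) and Cd79b (-1.35, its call lost without resident replicate 2 at -1.15) were lower, and Ms4a1, CD20, was 307 ± 128 in resident macrophages and 183 ± 59.8 in marrow monocytes, not called (0.66). Of 7 T and NK cell genes tested, 0 were higher and 1 lower, with sums over 13 measured genes of 1276 to 1679.6 in resident arrays and 1369.6 to 3738 in bone marrow arrays, and the CD3 chains Cd3d and Cd3e were below the filter. Nkg7, of cytotoxic granules, was the one lower, with 30.4, 25.2 and 3.89 in resident macrophages and 589, 306 and 2330.1 in marrow monocytes, a change of -4.56 that was -3.76 without bone marrow replicate 3 and -5.19 without bone marrow replicate 2. Basophil and mast cell genes were higher in 1 of 9 and lower in 3, with sums over 11 measured genes of 2817 to 3661 in resident arrays and 1206 to 4743.5 in bone marrow arrays. Mcpt8, a basophil protease, had 5.90, 6.04 and 8.69 in resident macrophages and 327, 316 and 607 in marrow monocytes (log2 fold change -4.24 ± 0.43 (SE), adjusted p = 6.40e-08).

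Of 5 erythroid genes tested 2 were lower, Car2 (-3.64) and Slc4a1 (-1.95), and 0 higher, with sums over 8 measured genes of 373 to 534 in resident arrays and 1001 to 1320.4 in bone marrow arrays. Of 9 dendritic cell genes tested 1 was higher, Tcf4 (1.01), and 1 lower, Flt3 (-1.70), both without a call when 1 of several arrays was left out (0.92 for Tcf4 and -1.41 for Flt3 without resident replicate 1), with sums over 11 measured genes of 3705 to 4209.7 in resident arrays and 2326 to 2753.5 in bone marrow arrays. Among 3 tested genes of mesothelial cells and fibroblasts 0 were called, with sums over 15 measured genes of 497 to 598 in resident arrays and 463 to 786 in bone marrow arrays. Eosinophil markers other than Alox15 and Prg2, a granule protein gene that was lower (-2.97, or -2.31 without bone marrow replicate 3), were below the filter, and in the platelet list Pf4, which the resident macrophages carried at a high signal, was the one gene higher, with Itga2b (-0.56) and Treml1 (-0.45) not called. The platelet chemokine gene Ppbp was the one lower, with 34.5, 11.3 and 32.2 in resident macrophages and 278, 31.8 and 659 in marrow monocytes, with overlapping arrays, and its change of -2.41 was -1.57 without bone marrow replicate 3 and -3.49 without bone marrow replicate 2. The change of Pf4 in the same list was 5.64 without bone marrow replicate 2 and 7.14 without bone marrow replicate 3.

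The genes above were placed among the 5 groups of zymosan peritonitis as a description. Of the 15 genes with the largest increase, bone marrow had the lowest mean of the 7 groups for 15 and resident macrophages the highest for 11. Of the 15 with the largest decrease, bone marrow had the highest mean for 11 and resident macrophages the lowest for 8. These genes were chosen for their change between resident macrophages and bone marrow, so the choice largely set these counts. Gata6 measured 4188 ± 517 in resident macrophages and 55.2 ± 10.03 in marrow monocytes (mean ± SD, n = 3 each), and 88.3 ± 35.6 in the cells sorted 4 h after zymosan. The 18 h and 72 h cells had 208 ± 34.4 and 3407 ± 469. Of the 168 h macrophages, those with Ly-6B on the surface had 1839.6 ± 283 and those without it had 4365 ± 591. Some of the differences did not follow that course. Aldh1a2 was 1597 ± 21.4 at 18 h, above its 1248 ± 98.6 in resident macrophages, with 4.35 ± 3.56 in marrow monocytes. Uck2 was 4524 ± 291 at 4 h, against 1568 ± 117 in marrow monocytes, and Ahr was 10273 ± 651 at 4 h, against 2053 ± 157 in marrow monocytes. Tpx2, a spindle assembly factor, was 315 ± 136 in resident macrophages, 3987 ± 678 in marrow monocytes and 58.6 ± 24.7 at 4 h, so that its lowest means were those of the early peritoneal monocytes and not of the resident cells.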

How the data were processed

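Intensities are MAS5 signals from mouse 430 2.0 arrays, which the authors computed in Affymetrix Expression Console 1.2, per the submitters' processing notes, and deposited on a linear scale. Per the labels' protocols, 100 ng of RNA from each sort was amplified in 2 cycles. The detection calls of the arrays were not used here, so a signal near the floor carries no call of presence. Precision is set by the small number of arrays. Of 45101 probe sets, 34958 had 1 gene symbol, 932 several and 9211 none listed, and each of 18194 genes was read from its probe set with the highest mean signal. Genes above 80.6, the median signal of the table, in at least 3 of the 21 arrays were tested, 12169 in all. limma 3.58.1 in R 4.3.3 was fitted to log2(signal + 15) over all 21 arrays in 7 groups, with a trend in eBayes, and each p in the text is its 2-sided p, Benjamini-Hochberg adjusted over these genes. The script was tested on simulated data for this comparison, where 186 of 200 changed genes were recovered with 6 false calls among 12169 genes.

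The gene lists and the genes described were chosen with earlier results of these data known. Named were the 15 largest changes each way without overlap of arrays, up to 4 called members of each list in each direction, and the sorting, lineage and marker genes. A further 46 genes were chosen after their values were seen, such as C3ar1, Pcna, Spn and Entpd1. Alternatives were the pseudocount, the scaling of arrays, the filter, the choice of probe set, the model and the arrays included.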

Additional observations from a re-analysis of the deposited data

How the results depend on the processing

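Under 17 alternatives to the processing, 1942 to 2807 of the 2807 called genes kept their call and 0 were called in the opposite direction. The 1942 came from the filter at the 75th percentile, which does not test all of these genes. The 2807 came from an adjusted p without the fold threshold, which cannot lose a call. Among the other alternatives 2227 to 2800 kept their call. Of 258 named genes that were called, 231 kept the call in every alternative that tested them and 0 changed sign, and a pseudocount 4 times as large cost 14 of them their call. An adjusted p without the fold threshold called 5777 genes, 3078 higher and 2699 lower. Quantile normalization gave 1458 higher and 1349 lower, and a common array median 1491 higher and 1308 lower. The excess of higher over lower genes was thus smaller under both scalings than with the main processing. A filter at the 75th percentile of the table, which tests fewer genes, left 1028 genes higher. Leaving out each array in turn gave 2760 to 2829 called genes, 1537 to 1592 higher and 1210 to 1272 lower. Of 94 counts of list members called, 46 moved by over 1.5 times under at least 1 alternative, most of them small counts. Among larger ones, sterol synthesis genes called lower were 4, against 9, with a gene's probe sets averaged, progenitor genes called lower were 2, against 6, with the higher filter, and lysosomal genes called higher were 15, against 8, without the fold threshold. Of 2253 further probe sets of called genes, 1390 were called the same way, 854 were not called and 9 were called the opposite way. At least 1 further probe set of Ahr, Bid, Cmpk2, Cxcl12, Cycs, H2-DMb2, Lifr, Lta4h, Scarb1, Tcf4 and Tpx2 was not called, with changes between -1.37 and 0.89 on the log2 scale.

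The groups share replicate numbers. With the number as a replicate block, 1571 genes were higher and 1240 lower, against 1566 and 1241. Same-numbered arrays deviated together at r = 0.105, 0.0479 and 0.0838, and each of 6 arrays had its highest correlation with the array of its own number, which is a hint from the data and not the design.

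With 3 arrays a group and no detection calls used, changes of genes near the floor rest on the pseudocount. The populations differ in tissue and isolation as well as cell type, and the arrays give no value that separates these.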
